A study of Homo sapiens with 36 samples.

Results

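The aminoacyl-tRNA synthetases are the enzymes that load each tRNA with its amino acid. The 39 mRNAs described here were listed by gene symbol, and the list was chosen with earlier results of these data known. All 39 were found among the 26485 symbols of the count tables. They are 20 synthetases of the cytosol, whose symbols in these tables lack the digit 1 of the current names, 16 mitochondrial synthetases, whose symbols end in 2, and 3 proteins that hold the multi-synthetase complex together (AIMP1, AIMP2 and EEF1E1).

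The cells were MDA-MB-231, a line from a triple-negative breast cancer, which the source label calls a xenograft cell line. The UAU line carried CRISPR interference, which represses transcription at a chosen gene, against eGFP and overexpressed tRNAIleUAU, the isoleucine tRNA whose anticodon is UAU. The GAUi line carried CRISPR interference against the isoleucine tRNA with the GAU anticodon together with a control overexpression construct. The line called isoswitch here had CRISPR interference against that GAU tRNA and overexpressed the UAU tRNA. The control line carried CRISPR interference against eGFP and the control overexpression construct. So all 4 lines held a CRISPR interference construct and an overexpression construct, and whether each line was 1 clone or a pool is not given in the sources used here. Cells were treated with 100 ug/mL cycloheximide, which stalls ribosomes on mRNA, for 5 minutes. Each line gave total RNA, a low fraction that spans the 80S monosome up to the first peak of polysomes, and a high fraction of the heavier polysomes. Each of these 12 groups had 3 libraries, lettered A, B and C.

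A synthetase recognises its amino acid and the matching tRNAs, joins them with energy from ATP, and so fixes which amino acid a codon stands for. The cytosolic enzymes serve nuclear-encoded mRNAs, and several of them sit in a large complex built on AIMP1, AIMP2 and EEF1E1, whereas a separate nuclear-encoded set is imported into mitochondria to serve the mRNAs of the mitochondrial genome. IARS charges isoleucine tRNAs of the cytosol, among them those with the UAU and the GAU anticodon, and IARS2 does so in mitochondria. Many cytosolic synthetase genes are known targets of ATF4, the transcription factor of the amino acid response, which is set off when uncharged tRNAs accumulate.

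Total RNA libraries held 6679340 to 8973050 counts each, low libraries 5310594 to 8234332 and high libraries 5192464 to 8974001. The 39 members together made up 0.367% to 0.414% of a total RNA library, 0.221% to 0.238% of a low library and 0.176% to 0.278% of a high library. Cytosolic members had 74 to 6790 counts in a library (median 535), complex proteins had 219 to 1507 (median 555), and mitochondrial members had 6 to 437 (median 69), so that values of the mitochondrial set are the least precise. Libraries of 1 group differed by more than counting error in every group. The chi-square per degree of freedom between pairs of libraries was 8.53 to 23.8 in GAUi total RNA, where library A stood apart, 2.88 to 15.8 in the control low fraction, where library B stood apart, and 1.79 to 9.29 in the other 10 groups. Among these 10, library C stood apart in the UAU high fraction (9.01 and 5.35, against 2.48 between A and B) and library A in the UAU low fraction (6.94 and 9.29, against 3.47 between B and C). Library A of the isoswitch high fraction was also further from B and C (6.30 and 4.17) than these were from each other (2.54). Markers of MDA-MB-231 (VIM, CD44, AXL, CAV1 and S100A6) summed to 9810 to 20688 CPM (counts adjusted for library size), against 122 to 460 CPM for 5 luminal markers, 8.08 to 20.2 for 3 receptor genes, 3.42 to 17.8 for 5 leukocyte, 1.29 to 8.09 for 4 endothelial and 0.272 to 4.93 for 5 fibroblast markers. The defining markers CD3E and CDH5 were at 0 in all libraries. In such bulk libraries, fewer cells that hold an mRNA and less of it per cell cannot be told apart.

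Values below are in CPM with trimmed-mean scaling over all 36 libraries, and they are compared only within a gene or a class, since the assay reads 1 tag at the 3′ end of an mRNA. A fraction's CPM is a share of the mRNA in that fraction, not an amount per cell. A member was called higher or lower at an adjusted p under 0.05 in the edgeR quasi-likelihood test with Benjamini-Hochberg adjustment over all genes tested, and folds are log2 with their standard error (SE). All 39 members passed the filter on low counts in every comparison.

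In control cells most cytosolic synthetase mRNAs made up a smaller share of each ribosome fraction than of total RNA, and most mitochondrial ones were not called. In the high fraction against total RNA, 15 of the 20 cytosolic members fell and none rose. Among the 16 mitochondrial members 5 fell and 1 rose, and among the 3 complex proteins AIMP1 fell and AIMP2 rose. Of all genes tested, 51.5% were called in this comparison, 27.1% lower and 24.4% higher. The median log2 fold change was -0.82 over the cytosolic and -0.26 over the mitochondrial members, beside -0.02 over all genes tested. Whether the classes differ was not tested. The AIMP2 call (0.23, adjusted p = 0.0217) was lost without total A or high B of the control line (adjusted p up to 0.0683). The mitochondrial member that rose was CARS2 (0.29, adjusted p = 0.0413), a call lost without total A or C or high A, B or C (up to 0.138). AARS2 (-0.61) was lost without total A, B or C or high A (up to 0.154), IARS2 (-0.35) without total A or B or high B or C (up to 0.187), HARS (-0.26) without total A, B or C or high B or C (up to 0.145), and FARSB (-0.25) without any one of the 6 libraries (up to 0.164).

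EPRS, which charges both glutamate and proline tRNAs, had 45.9, 35.1 and 35.8 CPM in the high fraction of control cells, against 135, 138 and 147 CPM in total RNA (-1.86 on the log2 scale, SE 0.12, adjusted p = 1.2e-08). AARS, the alanine enzyme, had 20.1, 17 and 16.7 CPM in the high fraction, against 51.8, 55.1 and 58.3 CPM in total RNA (-1.62, SE 0.11, adjusted p = 1.97e-08). All 3 high libraries lay below all 3 total libraries for both genes, as for 32% of all genes tested. LARS, for leucine, had 63.1, 49.8 and 53 CPM in the high fraction, against 137, 143 and 147 CPM in total RNA (-1.38, SE 0.10, adjusted p = 3.63e-08). RARS, for arginine, had 216, 170 and 168 CPM in the high fraction, against 405, 441 and 450 CPM in total RNA (-1.24, SE 0.12, adjusted p = 6.27e-07). Again no high library reached a total library. VARS (valine, -1.16), TARS (threonine, -1.04), QARS (glutamine, -0.99), DARS (aspartate, -0.83), MARS (methionine, -0.82) and NARS (asparagine, adjusted p = 8.46e-07) fell as well. The 5 cytosolic members that were not called were KARS, FARSA, SARS, YARS and WARS, with log2 fold changes of -0.15, -0.07, 0.01, 0.11 and 0.20. All 8 cytosolic enzymes of the multi-synthetase complex (DARS, EPRS, IARS, KARS, LARS, MARS, QARS and RARS) had negative values, 7 of them called, with a median of -0.98. Of the 12 outside it 8 were called lower, with a median of -0.42. Whether these 2 sets differ was not tested.

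The low fraction also held a smaller share of most cytosolic synthetase mRNAs than total RNA did. In low against total RNA, 16 of 20 cytosolic members fell and 1 rose, 4 of 16 mitochondrial members fell and 3 rose, and all 3 complex proteins fell, when 62.4% of all genes were called (33.3% lower, 29% higher). This comparison shares its total RNA libraries with the one before. The medians were -0.81 for cytosolic and -0.30 for mitochondrial members, beside -0.04 for all genes. Of the 8 cytosolic enzymes of the multi-synthetase complex 7 fell (median -0.89). Of the 12 outside it 9 fell and 1 rose (median -0.78). NARS had 38, 42.1 and 38.9 CPM in the low fraction, against 106, 105 and 107 CPM in total RNA (-1.36, SE 0.10, adjusted p = 3.54e-08). AIMP2, a scaffold of the complex, had 66.1, 74.8 and 67.9 CPM in the low fraction, against 143, 148 and 149 CPM in total RNA (-1.02, SE 0.08, adjusted p = 6.44e-08). EPRS had 50.1, 58.3 and 46.5 CPM in the low fraction (-1.39, SE 0.11, adjusted p = 7.98e-08). DARS had 68.1, 70.5 and 60.9 CPM in the low fraction, against 168, 158 and 159 CPM in total RNA (-1.23, SE 0.10, adjusted p = 8.25e-08). No low library of these 4 reached a total library, as for 37.3% of all genes tested. The members that rose were RARS2, the mitochondrial arginine enzyme (0.79), AARS2 (0.51), CARS2 (0.39) and CARS, the cytosolic cysteine enzyme (0.24). The call of AARS2 was lost without any one of control total A, B or C or control low B or C (adjusted p up to 0.102), that of CARS without control total A or C (up to 0.0946), and that of EEF1E1 (-0.35) without control total A or C or control low B (up to 0.213).

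The fractions were also compared with each other, which shows whether an mRNA leaned to the heavier polysomes or to the low fraction, which includes the monosome. Here 12 of 39 members were higher in the high than in the low fraction of control cells and 13 were lower, when 66% of all genes were called (32.8% higher, 33.2% lower), so that the share among members was near that of all genes. The direction depended on the enzyme. AIMP2 had 172, 178 and 173 CPM in the high fraction, against 66.1, 74.8 and 67.9 CPM in the low fraction (1.26, SE 0.08, adjusted p = 3.26e-09). WARS, for tryptophan, had 67.1, 68.9 and 72.6 CPM in the high fraction, against 30.9, 26.8 and 25.6 CPM in the low fraction (1.26, SE 0.11, adjusted p = 7.65e-08). The tyrosine enzyme YARS had 87.7, 96.1 and 100 CPM in the high fraction, against 34.8, 46.6 and 33.6 CPM in the low fraction (1.23, SE 0.12, adjusted p = 2.17e-07). These 3 mRNAs were above every low library in every high library, as were 36.3% of all genes tested. RARS2 did the opposite, with 16.2, 15 and 16 CPM in the high fraction, against 38.7, 40.3 and 34.3 CPM in the low fraction (-1.33, SE 0.11, adjusted p = 6.81e-08). The mitochondrial tyrosine enzyme YARS2 (1.37) and FARSA, the alpha subunit of the phenylalanine enzyme (0.72), also rose, whereas QARS (-1.20), AARS (-1.02) and CARS (-0.81) fell. The beta subunit FARSB went the other way from FARSA (-0.31, adjusted p = 0.00896). All 3 complex proteins rose, AIMP1 by 0.56 and EEF1E1 by 0.59.

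**Figure D1:**
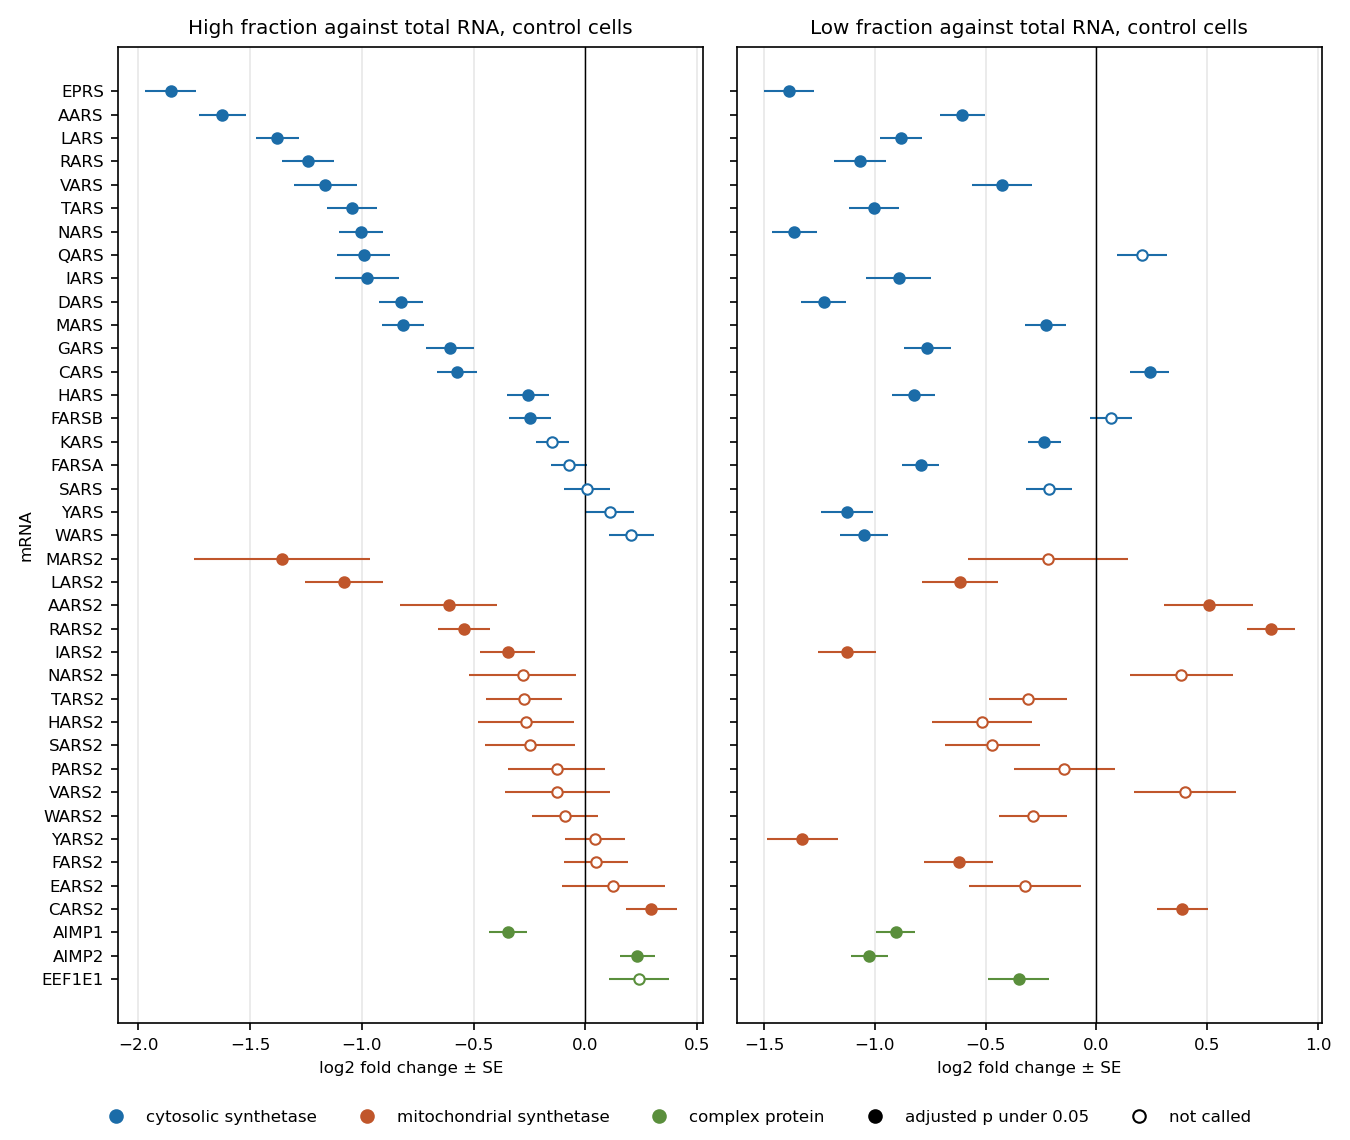
Log2 fold change ± SE of the 39 mRNAs (vertical axis) in control cells, high fraction against total RNA (left) and low fraction against total RNA (right), from 3 libraries a group; filled points are called. Most cytosolic members lie left of 0 in both panels, down to -1.86 for EPRS, and 12 of 16 mitochondrial members do so in the left and 11 in the right panel, most of them without a call.

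The series was made to compare the lines. In total RNA, single members were called in the lines with the repressed GAU tRNA. TARS and EPRS rose and AIMP2 fell in both the GAUi and the isoswitch line. No member was called in the UAU line against control by edgeR, when 0.914% of all genes were, 0.348% higher and 0.566% lower (3 members and 13.1% of genes had an unadjusted p under 0.05), and DESeq2 called none either. In the GAUi line 4 members rose and 2 fell, when 10.1% of genes were called (4.38% higher, 5.72% lower). In the isoswitch line 2 rose and 1 fell, when 4.05% were called (1.29% higher, 2.76% lower). As shares of the 39 members these are 15.4% in GAUi and 7.69% in isoswitch cells. All 3 comparisons share the control libraries. The median log2 fold change of the cytosolic members was 0.06 in UAU, 0.19 in GAUi and 0.13 in isoswitch cells, with 0.01, 0.00 and 0.01 over all genes tested. For the mitochondrial members it was 0.03, 0.11 and 0.01. With 1 library left out, the isoswitch median ran from -0.004 to 0.09 over the mitochondrial and from 0.11 to 0.13 over the cytosolic members. Whether the classes differ was not tested here either.

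TARS, which charges threonine tRNAs, had 741, 781 and 795 CPM in GAUi and 757, 782 and 741 CPM in isoswitch cells, against 606, 628 and 618 CPM in control cells, where UAU cells had 596, 598 and 584 CPM. Every GAUi and isoswitch library lay above every UAU and control library. Against control alone, 13% of all genes tested lay above in this way in GAUi and 12.6% in isoswitch cells. The log2 fold change was 0.32 in both lines (SE 0.07 each, adjusted p = 0.00427 in GAUi and 0.00772 in isoswitch), and the isoswitch call was lost without control A or isoswitch B (adjusted p up to 0.0639). EPRS had 147, 199 and 197 CPM in GAUi and 186, 177 and 183 CPM in isoswitch cells, against 135, 138 and 147 CPM in control cells. Its log2 fold changes of 0.36 (SE 0.10, adjusted p = 0.0255) and 0.40 (SE 0.10, adjusted p = 0.0286) were called, and GAUi library A overlapped the highest control library. The GAUi call of EPRS was lost without control A, B or C or GAUi B or C (adjusted p up to 0.113), and the isoswitch call without any one of its 6 libraries (up to 0.155). VARS also rose in GAUi cells (0.40, adjusted p = 0.0292), a call lost without control A or B or GAUi C (up to 0.157).

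The mitochondrial members that changed in total RNA did so in GAUi cells. IARS2, which charges isoleucine tRNA in mitochondria, had 38.3, 40.3 and 37.9 CPM in GAUi cells, against 54.1, 62.4 and 48.9 CPM in control cells (-0.51, SE 0.11, adjusted p = 0.00672). The groups did not overlap, as for 26.1% of all genes tested, and the call was lost without control B (adjusted p up to 0.0622). MARS2, the mitochondrial methionine enzyme, had 9.5, 8.2 and 7.34 CPM in GAUi cells, against 4.08, 5.99 and 4.8 CPM in control cells (0.76, SE 0.18, adjusted p = 0.0128), and that call was lost without control A or C (up to 0.0748). The count of called members in GAUi total RNA was 3 without control A or without control B and 11 without GAUi A, the library that stood apart. In isoswitch total RNA the count was 1 without control A or without isoswitch B.

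AIMP2 was the member called most often against control, lower in 7 of the 9 comparisons of a line with control. In total RNA it had 115, 104 and 113 CPM in GAUi and 109, 105 and 110 CPM in isoswitch cells, against 143, 148 and 149 CPM in control cells, with no overlap (-0.41, SE 0.08, adjusted p = 0.00229 in GAUi and -0.43, SE 0.08, adjusted p = 0.00272 in isoswitch). Of all genes tested, 26.1% did not overlap control in GAUi and 30.1% in isoswitch total RNA. In the low fraction AIMP2 was the single member called in GAUi and in isoswitch cells, with 51, 52.8 and 56.1 CPM in GAUi and 54.1, 49.5 and 49.6 CPM in isoswitch cells, against 66.1, 74.8 and 67.9 CPM in control cells. The log2 fold changes there were -0.41 (SE 0.09, adjusted p = 0.0178) and -0.47 (SE 0.09, adjusted p = 0.0095). They were lost without GAUi A or B (adjusted p up to 0.114) and without isoswitch C (up to 0.0518). In the low fraction 3.4% of all genes were called in GAUi (1.27% higher, 2.13% lower), 2.58% in isoswitch (0.964% higher, 1.62% lower) and 0.691% in UAU cells (0.329% higher, 0.362% lower), where no member was called by edgeR or DESeq2 (3 members and 13.7% of genes at an unadjusted p under 0.05). Without control B of the low fraction, the library that stood apart, 3 members were called in GAUi and 3 in isoswitch cells.

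The 3′ end of AIMP2 (plus strand) overlaps that of EIF2AK1, the heme-regulated kinase of the translation factor eIF2, over 1588 bases at chr7:6022247-6023834 of GRCh38.p14. The strand setting of the counting is not given in the sources used here, so tags of these genes may not have been told apart. EIF2AK1 was itself lower in the same lines, by log2 fold changes of -0.50 (adjusted p = 0.000824) in GAUi and -0.42 (adjusted p = 0.00524) in isoswitch total RNA, -0.53 and -0.52 in their low fractions and -0.43 and -0.39 in their high fractions. In UAU cells EIF2AK1 was not called (-0.05 in total RNA, -0.09 in the low and -0.06 in the high fraction). How much of the AIMP2 values comes from this overlap was not tested. The 3′ end of MARS lies in an overlap of 65 bases with DDIT3, and that of EARS2 in one of 3606 bases with GGA2. EEF1E1 lies over its whole 29189 bases within a readthrough transcript, EEF1E1-BLOC1S5, which a strand setting would not tell apart from it. Tags of these members may thus also include those of the overlapping genes.

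**Figure D2:**
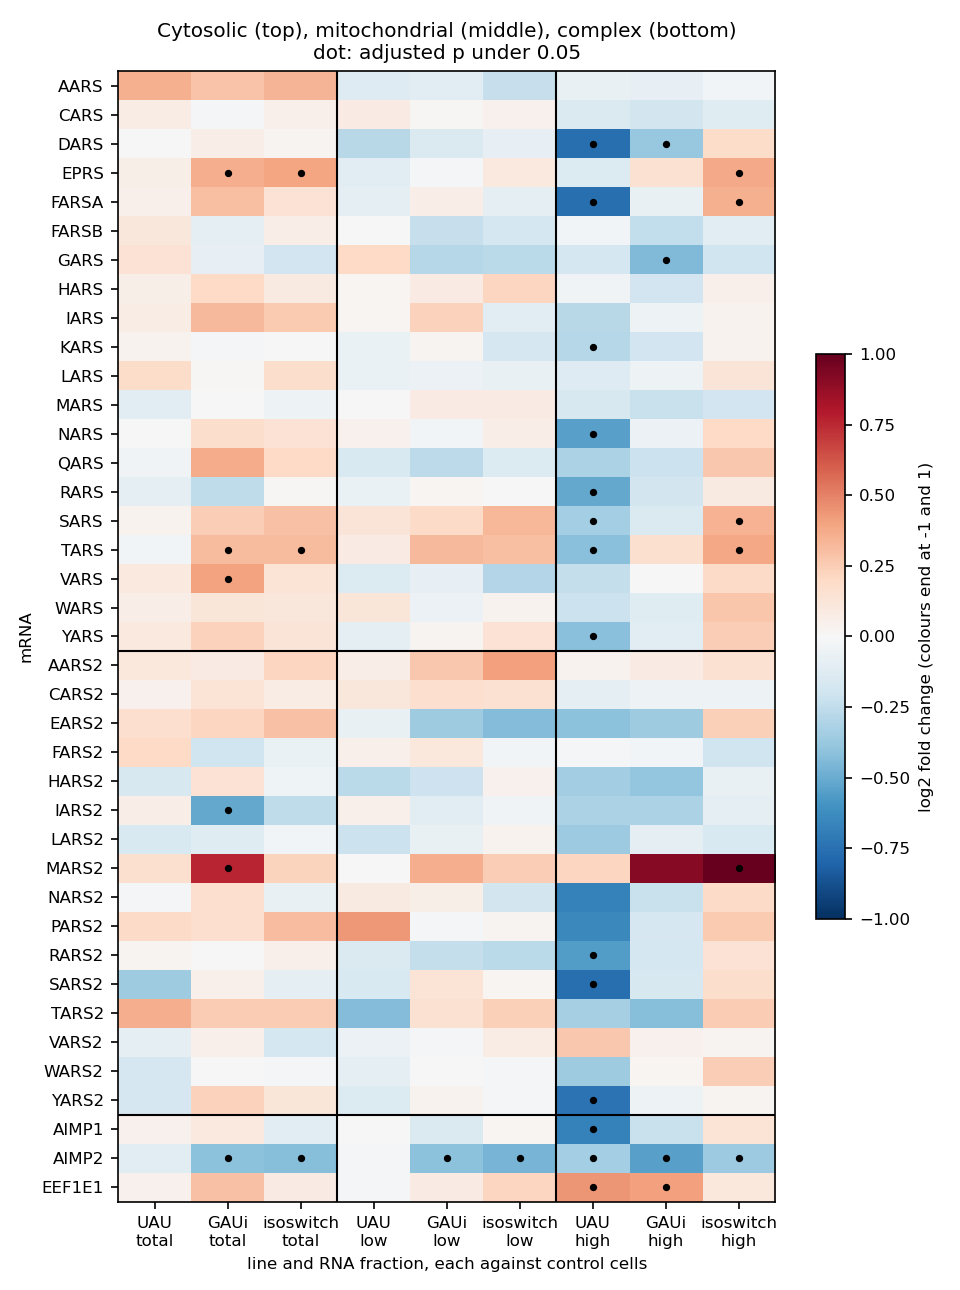
Log2 fold change of the 39 mRNAs (vertical axis) in the UAU, GAUi and isoswitch lines against control, in total RNA and in the low and high fraction (horizontal axis); dots mark calls at an adjusted p under 0.05 and colours end at -1 and 1. AIMP2 is called lower in 7 of the 9 columns, and the UAU high column holds 13 of the lower calls.

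Because cytosolic synthetase genes are known ATF4 targets, the RefSeq promoters of the members (250 bases before to 50 after the start) were searched for the C/EBP-ATF response element TGATGNAA on both strands. Of the 39 members 33 had a promoter entry, with 45 windows in all. The element was present in 7 of 16 cytosolic (43.8%), 1 of 14 mitochondrial and 0 of 3 complex promoters, and in 1217 of 27305 genes (4.46%). The windows shown run from 70 bases before to 30 after the start in GRCh38.p14, with the element in capitals, for the 6 cytosolic genes that hold it within this window and for EPRS, which rose in total RNA and has no match. A match describes letters only.
TARS, chr5:33440895-33440994, plus strand: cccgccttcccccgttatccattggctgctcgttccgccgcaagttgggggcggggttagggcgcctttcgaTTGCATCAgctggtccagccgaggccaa
IARS, chr9:92293668-92293767, minus strand: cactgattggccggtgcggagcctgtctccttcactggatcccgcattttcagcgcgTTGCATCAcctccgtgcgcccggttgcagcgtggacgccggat
MARS, chr12:57487998-57488097, plus strand: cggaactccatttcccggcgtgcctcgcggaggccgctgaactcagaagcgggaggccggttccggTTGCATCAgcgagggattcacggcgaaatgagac
CARS, chr11:3057394-3057493, minus strand: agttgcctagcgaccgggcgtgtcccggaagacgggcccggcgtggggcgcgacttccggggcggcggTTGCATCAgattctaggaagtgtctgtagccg
GARS, chr7:30594808-30594907, plus strand: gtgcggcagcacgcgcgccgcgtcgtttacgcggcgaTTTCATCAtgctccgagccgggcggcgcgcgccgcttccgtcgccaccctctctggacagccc
NARS, chr18:57621807-57621906, minus strand: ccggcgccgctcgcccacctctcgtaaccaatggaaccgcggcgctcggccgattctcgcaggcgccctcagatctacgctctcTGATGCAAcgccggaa
EPRS, chr1:220046476-220046575, minus strand: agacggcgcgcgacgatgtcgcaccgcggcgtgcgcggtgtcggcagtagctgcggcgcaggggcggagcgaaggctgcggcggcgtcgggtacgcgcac

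The element TTGCATCA, which is the same motif read on the other strand, starts 13 bases before the start in IARS, 4 before in MARS, 2 before in CARS and at base 3 in TARS. AARS holds it 187 bases before its start, outside the window shown. In total RNA, 1 of the 7 cytosolic members with a match (TARS) was called higher in GAUi cells and 1 in isoswitch cells, and among the 9 with a promoter but no match 1 (EPRS) was called in each line. The median log2 fold changes in GAUi cells were 0.17 with and 0.20 without a match, and in isoswitch cells 0.15 and 0.11. DARS, LARS, VARS, YARS, AARS2 and VARS2 had no entry. Searched in the same way on both strands, the NRF1 motif, known from many nuclear genes for mitochondrial proteins, was present in 3 of 14 mitochondrial (21.4%), 3 of 16 cytosolic (18.8%) and 1 of 3 complex promoters, and in 6.98% of all genes. A start at a C that opens a run of 5 or more pyrimidines, that C included, was present in 2 of the 45 windows (4.44%) and in 4.07% of all windows.

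The other genes of the amino acid response gave a mixed picture in total RNA. Of 26 tested apart from synthetases, 2 rose and 2 fell in GAUi cells, which is 15.4% of the list beside 10.1% of all genes. PSAT1, of serine synthesis, rose (log2 fold change 0.53, adjusted p = 0.00116), as did the amino acid transporter subunit SLC3A2 (0.40, adjusted p = 0.0245), whereas PSPH, of the same serine pathway, fell (-0.50, adjusted p = 0.0128) and the transporter SLC38A2 fell (-0.26, adjusted p = 0.0419). In isoswitch cells 2 rose and 3 fell (19.2% of the list, beside 4.05% of all genes), among them NUPR1 (1.03), PSAT1 (0.41), SLC7A11 (-0.42) and SLC38A2 (-0.41). The medians of the list were -0.01 and 0.07.

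The high fraction held most of the changes between lines. In UAU cells 13 members fell and 1 rose against control: 8 of 20 cytosolic and 3 of 16 mitochondrial members fell, none of either class rose, and of the complex proteins AIMP1 and AIMP2 fell and EEF1E1 rose. Of all genes tested 28.7% were called, 15.5% lower and 13.1% higher. The log2 fold change was negative for 35 of 39 members, and its median was -0.26 over the cytosolic and -0.35 over the mitochondrial members, beside 0.00 over all genes.

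DARS, a subunit of the multi-synthetase complex, had 53.5, 48.7 and 58.8 CPM in the UAU high fraction, against 105, 90.1 and 80.6 CPM in control (-0.76, SE 0.10, adjusted p = 8.85e-06). FARSA had 75.2, 75.1 and 102 CPM in UAU, against 136, 151 and 147 CPM in control (-0.75, SE 0.11, adjusted p = 2.62e-05). AIMP1, the scaffold protein, had 45.1, 49.9 and 56.8 CPM in UAU, against 78.6, 87.6 and 79.2 CPM in control (-0.67, SE 0.10, adjusted p = 3.28e-05). Every UAU library was below every control library for these 3 mRNAs, as for 21.4% of all genes tested. Their calls held without any one library. EEF1E1, the smallest of the complex scaffolds, was on the other side, with 114, 112 and 110 CPM in UAU, against 83.6, 89.7 and 76.3 CPM in control (0.44, SE 0.08, adjusted p = 0.000293), and did not overlap either. Without UAU C, the library that stood apart, 19 members were called. YARS2 (-0.74), RARS2 (-0.56), NARS (-0.55), RARS (-0.51) and TARS (-0.42) also fell, as did the mitochondrial serine enzyme SARS2 (-0.76), although that call was lost without UAU A (adjusted p up to 0.055). AIMP2, YARS, SARS and KARS completed the 13. AIMP2 was lost without UAU A (up to 0.0566), KARS without control A or UAU B (up to 0.0788), SARS without UAU A or B (up to 0.0636), and YARS without control B or C or UAU A or B (up to 0.175). In the same libraries the markers of MDA-MB-231 summed to 19835 to 20688 CPM in UAU, against 13644 to 14689 CPM in control, the luminal markers to 148 to 206 CPM against 254 to 271 CPM, and the 10 most abundant genes took 7.72% to 7.83% of UAU counts against 6.30% to 6.83% of control counts. The part of these shifts in the synthetase values was not tested.

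In the GAUi high fraction 3 members fell and 1 rose, when 10.1% of genes were called (5.48% lower, 4.66% higher), again a share near that of all genes. AIMP2 had 117, 122 and 118 CPM in GAUi, against 172, 178 and 173 CPM in control (-0.54, SE 0.09, adjusted p = 0.000265). EEF1E1 had 115, 106 and 112 CPM in GAUi, against 83.6, 89.7 and 76.3 CPM in control (0.41, SE 0.08, adjusted p = 0.00206). The 2 scaffolds thus moved in opposite directions, each without overlap, when 31.4% of all genes tested did not overlap. GARS, the glycine enzyme of cytosol and mitochondria, had 63.1, 57.6 and 64.9 CPM in GAUi, against 91.1, 70.1 and 91 CPM in control (-0.44, SE 0.10, adjusted p = 0.00649). DARS had 67.1, 72.9 and 72.6 CPM in GAUi, against 105, 90.1 and 80.6 CPM in control (-0.38, SE 0.10, adjusted p = 0.0164). Neither overlapped, but GARS was lost without control A (adjusted p up to 0.0583), and DARS without control A or GAUi A (up to 0.152).

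In the isoswitch high fraction the direction was mostly upward, with 5 members higher (4 cytosolic, 1 mitochondrial) and 1 lower, when 11% of genes were called (3.67% higher, 7.36% lower). The cytosolic median was 0.16 and the mitochondrial 0.15. TARS had 399 CPM in all 3 isoswitch libraries, against 373, 273 and 261 CPM in control (0.39, SE 0.10, adjusted p = 0.00782), and control A came close to the isoswitch libraries. AIMP2 had 138, 135 and 136 CPM in isoswitch, against 172, 178 and 173 CPM in control (-0.36, SE 0.09, adjusted p = 0.00874). SARS, for serine, had 265, 269 and 248 CPM in isoswitch, against 206, 193 and 212 CPM in control (0.35, SE 0.10, adjusted p = 0.0172). MARS2 had 4.64, 4.54 and 3.56 CPM in isoswitch, against 2.06, 2.5 and 1.09 CPM in control (1.12, SE 0.32, adjusted p = 0.0238). None of the 4 overlapped between the lines, when 29.7% of all genes tested did not overlap. EPRS (0.38) and FARSA (0.36) also rose. TARS lost its call without control B or C (adjusted p up to 0.0678), SARS without control B or isoswitch A or B (up to 0.0666), MARS2 without control A or C or isoswitch A or B (up to 0.107), EPRS without control B or C or isoswitch A or C (up to 0.164), and FARSA without control A or C or isoswitch A (up to 0.279). The count of called members was 3 without control B and 2 without control C or without isoswitch A, so only AIMP2 of these 6 kept its call throughout.

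**Figure D3:**
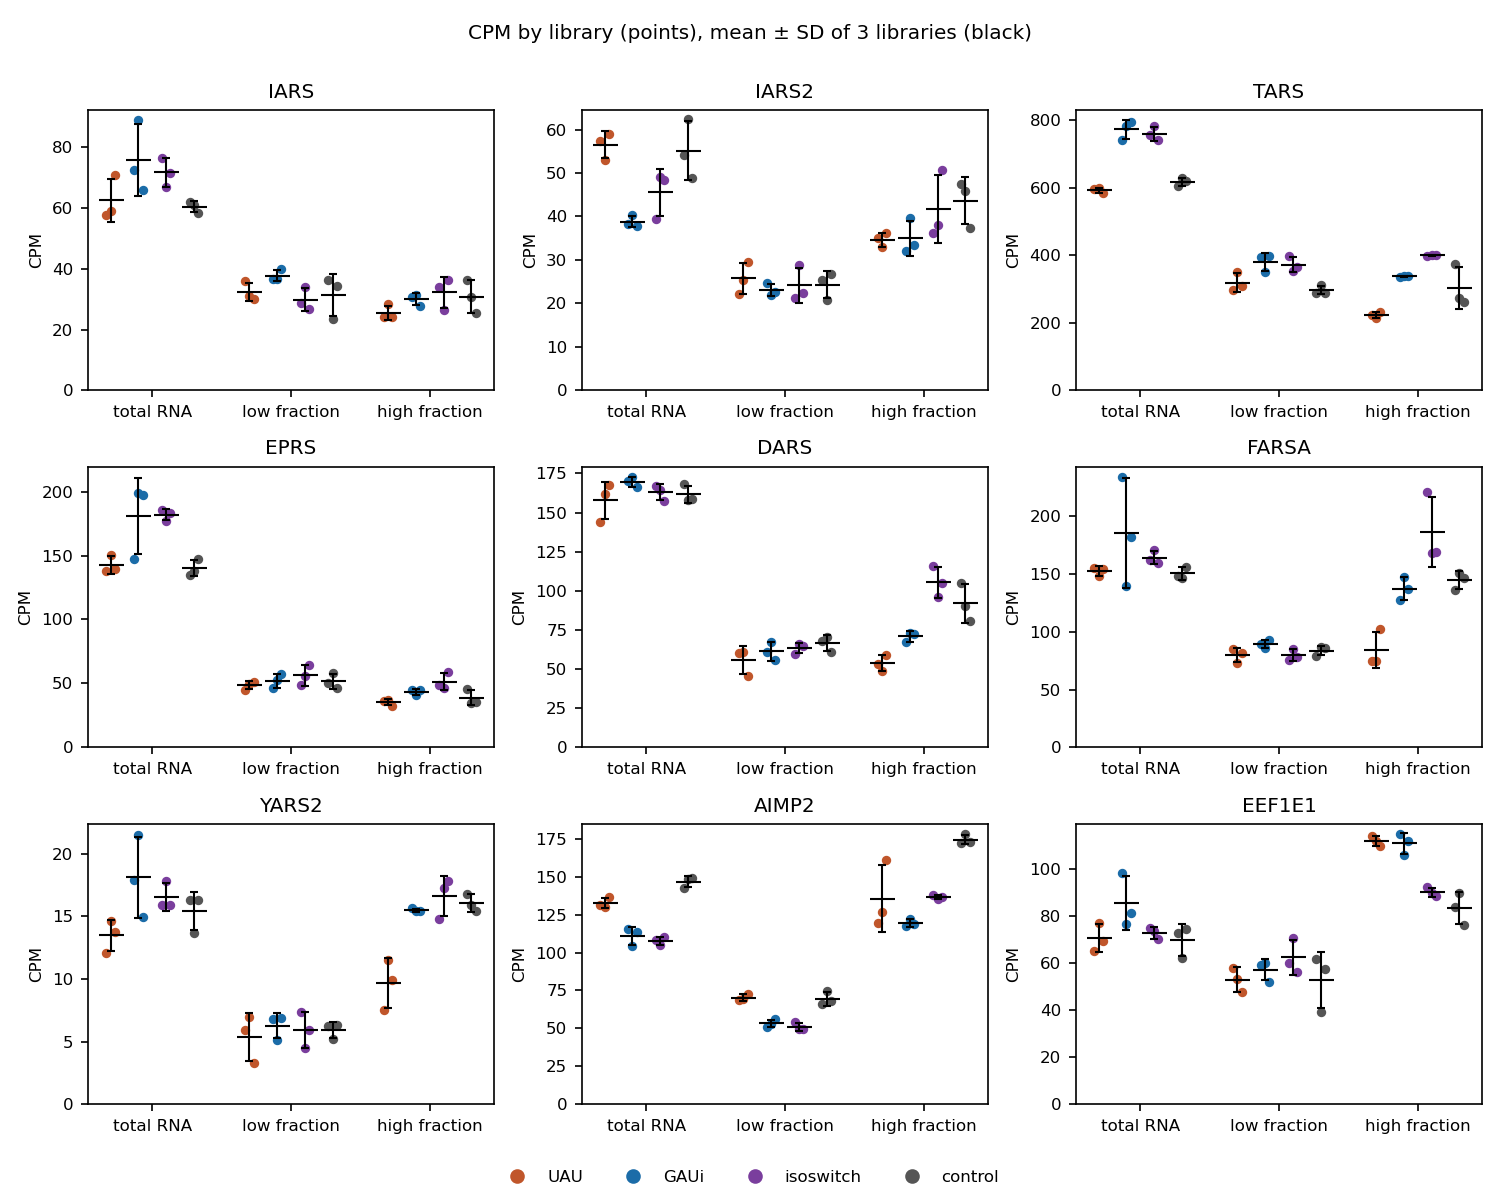
CPM of 9 members (vertical axes) in total RNA, low and high fraction for the UAU, GAUi, isoswitch and control lines; points are libraries, black bars mean ± SD of 3. DARS in the high fraction lies at 48.7 to 58.8 CPM in UAU and at 80.6 to 105 CPM in control libraries, and AIMP2 is lower in GAUi and isoswitch than in control cells in total RNA and in both fractions.

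Set directly against each other, the isoswitch and UAU lines, which both overexpress the UAU tRNA, differed in 24 members in the high fraction and in 3 members each in total RNA and the low fraction. In the high fraction 23 members were higher in isoswitch than in UAU cells and 1 was lower, when 41.6% of genes were called (20.4% higher, 21.3% lower). By class, 13 of 20 cytosolic, 9 of 16 mitochondrial and 1 of 3 complex members rose, and the medians were 0.46 over cytosolic and 0.59 over mitochondrial members, beside -0.01 over all genes. The libraries did not overlap for 23 members above and 1 below, when 49.2% of all genes did not overlap (26.1% above, 23.2% below). The calls of LARS, VARS, TARS2, MARS2, NARS2 and PARS2 were each lost without 1 or more of UAU A, B or C or isoswitch A, B or C (adjusted p up to 0.229), and 19 members were called without UAU A. In these libraries the markers of MDA-MB-231 summed to 12707 to 14507 CPM in isoswitch, against 19835 to 20688 CPM in UAU, and the luminal markers to 271 to 296 CPM against 148 to 206 CPM, and their part in the synthetase values was not tested.

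FARSA had 221, 168 and 169 CPM in the isoswitch high fraction, against 75.2, 75.1 and 102 CPM in UAU (1.11, SE 0.11, adjusted p = 2.83e-08). DARS had 116, 96 and 105 CPM in isoswitch, against 53.5, 48.7 and 58.8 CPM in UAU (0.94, SE 0.10, adjusted p = 8.51e-08). TARS had 399 CPM in each isoswitch library, against 224, 215 and 232 CPM in UAU (0.81, SE 0.10, adjusted p = 3.01e-07). All isoswitch libraries lay above all UAU libraries. AIMP1 had 101, 84.6 and 85 CPM in isoswitch, against 45.1, 49.9 and 56.8 CPM in UAU (0.81, SE 0.10, adjusted p = 6.52e-07), again with no overlap. YARS2 (0.77), NARS (0.74), RARS2 (0.70), SARS (0.69), YARS (0.66) and RARS (0.60) rose too, and EEF1E1 fell (-0.34, adjusted p = 0.00167).

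In total RNA 3 members differed between isoswitch and UAU cells, when 3.42% of genes did (1.22% higher, 2.2% lower): TARS rose (0.35, SE 0.07, adjusted p = 0.00458), and AIMP2 (-0.31, adjusted p = 0.0309) and GARS (-0.34, adjusted p = 0.0439) fell. Without any one of the 6 libraries only 1 was called, and AIMP2 (adjusted p up to 0.152) and GARS (up to 0.203) were lost in all 6 of these fits. In the low fraction 3 members differed, when 4.25% of genes did (1.86% higher, 2.39% lower). GARS had 61.2, 59.1 and 61.1 CPM in isoswitch, against 88.6, 85.5 and 78.2 CPM in UAU (-0.48, SE 0.09, adjusted p = 0.00587). The groups did not overlap, as for 22.6% of all genes tested. AIMP2 fell (-0.46, adjusted p = 0.00779), and TARS2, the mitochondrial threonine enzyme, rose (0.67, adjusted p = 0.044), a call lost without any one of the 6 libraries (up to 0.163).

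Against GAUi cells, which share the repressed GAU tRNA, the isoswitch high fraction had 8 members higher and 1 lower, when 15.8% of genes were called (6.58% higher, 9.26% lower). All 20 cytosolic log2 fold changes were positive, with a median of 0.23. Of the 16 mitochondrial ones 12 were positive, also with a median of 0.23. DARS had 116, 96 and 105 CPM in isoswitch, against 67.1, 72.9 and 72.6 CPM in GAUi (0.56, SE 0.10, adjusted p = 0.000474). SARS had 265, 269 and 248 CPM in isoswitch, against 159, 194 and 200 CPM in GAUi (0.49, SE 0.10, adjusted p = 0.0011). FARSA had 221, 168 and 169 CPM in isoswitch, against 127, 147 and 137 CPM in GAUi (0.43, SE 0.11, adjusted p = 0.00828), and QARS had 31.5, 25.4 and 27.7 CPM in isoswitch, against 19.8, 20.2 and 20 CPM in GAUi (0.49, SE 0.12, adjusted p = 0.00873). No isoswitch library of these 4 reached down to a GAUi library, as for 17.5% of all genes tested. The count was 3 without GAUi A and 4 without isoswitch A. FARSA was lost without either of these (adjusted p up to 0.115), and QARS without isoswitch A (up to 0.082).

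The interaction, which is the effect of the UAU tRNA in cells with the repressed GAU tRNA minus its effect in cells with the eGFP construct, tests whether the 2 changes add up. In total RNA no member was called by edgeR or DESeq2, when 0.0243% of genes were called (3 members and 10% of genes at an unadjusted p under 0.05). In the high fraction 22 members had a positive and 1 a negative interaction, when 35.7% of genes were called (18.1% positive, 17.6% negative). These were 11 of 20 cytosolic, 9 of 16 mitochondrial and 2 of 3 complex members, and all 20 cytosolic values were positive, with a median of 0.47 against 0.62 for the mitochondrial members and -0.01 for all genes. The interaction uses all 12 high libraries, which the comparisons above share, among them the UAU libraries whose marker sums differ. The MDA-MB-231 markers summed to 14227 to 15783 CPM and the luminal markers to 213 to 231 CPM in GAUi cells, the fourth line of this test. Of the 23 calls, 5 were lost when 1 library was left out: WARS2 in 7 of 12 such fits, GARS, NARS2 and PARS2 in 5 each and IARS2 in 3 (adjusted p up to 0.099).

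DARS had the interaction with the smallest p (1.32, SE 0.14, adjusted p = 2.23e-07): the isoswitch and GAUi libraries are at 96 to 116 CPM and 67.1 to 72.9 CPM, whereas UAU and control are at 48.7 to 58.8 CPM and 80.6 to 105 CPM. So DARS was higher with the UAU tRNA in GAU-repressed cells and lower with it in eGFP cells. FARSA (1.18, SE 0.16, adjusted p = 2.57e-06) and AIMP1 (1.03, SE 0.14, adjusted p = 4.77e-06) followed, and the single negative call was that of EEF1E1 (-0.75, SE 0.12, adjusted p = 1.96e-05), whose 88.4 to 92.1 CPM in isoswitch lay below 106 to 115 CPM in GAUi, and whose 110 to 114 CPM in UAU lay above 76.3 to 89.7 CPM in control. SARS (0.83), NARS (0.80), QARS (0.80), RARS (0.78), RARS2 (0.87) and TARS (0.65) were also positive. Of the isoleucine enzymes, IARS2 was called at 0.55 (SE 0.18, adjusted p = 0.0169) and IARS, at 0.36 (SE 0.19, adjusted p = 0.135), was not. For EARS2, which was called at 1.00 (adjusted p = 0.00285), the overlapping gene GGA2 was called at 0.65 (adjusted p = 0.00772), and the share of EARS2 in that was not tested.

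**Figure D4:**
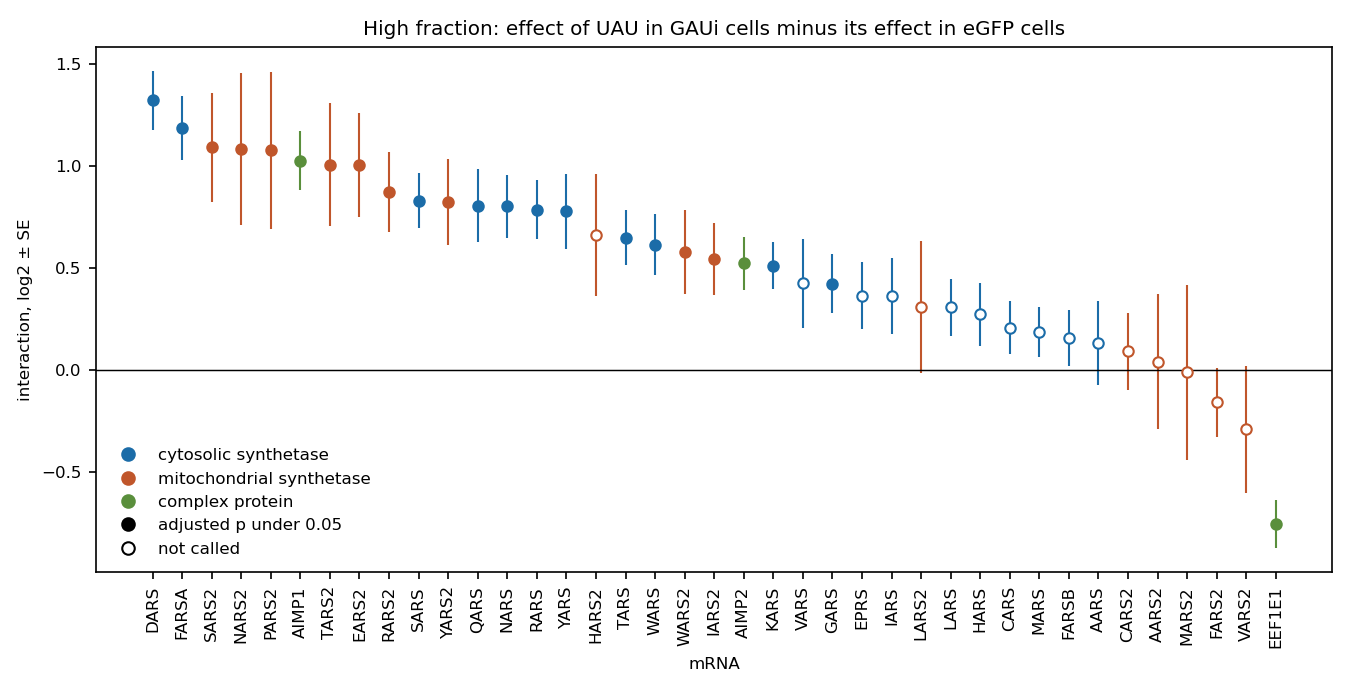
Interaction in the high fraction (vertical axis, log2 ± SE, 12 libraries) for the 39 mRNAs, sorted; filled points are called. DARS is highest at 1.32, all 20 cytosolic members lie above 0, and EEF1E1, at -0.75, is the single call below 0, where VARS2 (-0.29), FARS2 (-0.16) and MARS2 (-0.01) also lie without a call.

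The change from total RNA to the high fraction, set against the same change in control cells, gives polysome loading relative to the mRNA level. In UAU cells 3 members fell and 1 rose, when 7.32% of genes were called (3.75% lower, 3.57% higher). DARS had the smallest p (-0.73, SE 0.13, adjusted p = 0.00134), then AIMP1 (-0.68, SE 0.16, adjusted p = 0.00739), FARSA (-0.78, SE 0.18, adjusted p = 0.00829) and EEF1E1 (0.42, SE 0.13, adjusted p = 0.0466). Total RNA of these 4 members was at 144 to 167, 99.2 to 112, 148 to 156 and 65.3 to 76.8 CPM in UAU, against 158 to 168, 98.8 to 107, 147 to 157 and 62.1 to 74.5 CPM in control, so the ranges overlapped before fractionation. The EEF1E1 call was lost without any one of control A or C or UAU A or C of total RNA, or control A or C or UAU A or B of the high fraction (adjusted p up to 0.135). Without UAU C of the high fraction 11 members were called.

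In GAUi and isoswitch cells no member was called for loading by edgeR. Of all genes 0.718% were called in GAUi cells (0.223% higher, 0.494% lower), and 0% in isoswitch cells. An unadjusted p under 0.05 was seen for 13 members in GAUi (all negative, 14.8% of genes) and for 2 in isoswitch cells (5.17% of genes). DESeq2 called 1 member in GAUi and 0 in isoswitch cells, and edgeR called 1 in GAUi without GAUi A of total RNA or without control C of the high fraction. The cytosolic medians were -0.30 in UAU, -0.30 in GAUi and 0.06 in isoswitch cells. The mitochondrial medians were -0.27, -0.18 and -0.0004 in the same order.

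The isoleucine enzymes are given in all 12 groups, since both tRNAs changed in these lines carry isoleucine. IARS averaged, in total RNA, 62.5 ± 7.18 CPM in UAU, 75.9 ± 11.8 CPM in GAUi, 71.7 ± 4.76 CPM in isoswitch and 60.5 ± 1.79 CPM in control cells (SD, n = 3). In the low fraction IARS averaged 32.4 ± 3.09, 37.8 ± 1.88, 29.8 ± 3.78 and 31.4 ± 6.87 CPM for UAU, GAUi, isoswitch and control cells, and in the high fraction 25.5 ± 2.39, 30.04 ± 1.92, 32.2 ± 5.24 and 30.8 ± 5.40 CPM. All 4 total RNA means stand above all 8 fraction means, and in total RNA and the high fraction the libraries of lines next to each other in the order of levels overlapped. In the low fraction the GAUi libraries, at 36.6 to 39.9 CPM, lay above all others, which reached 36.3 CPM, and the other 3 lines overlapped. Against control alone, 13.3% of all genes tested lay above without overlap in the GAUi low fraction. IARS was called in control cells, lower in the high fraction (-0.98, adjusted p = 4.31e-05) and in the low fraction (-0.89, adjusted p = 8.14e-05) than in total RNA. It was called in no comparison between lines. The value nearest to a call was 0.33 in GAUi total RNA (SE 0.11, adjusted p = 0.0766), which became a call without GAUi A or GAUi C.

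IARS2 averaged, in total RNA, 56.5 ± 3.07 CPM in UAU, 38.8 ± 1.26 CPM in GAUi, 45.6 ± 5.43 CPM in isoswitch and 55.2 ± 6.78 CPM in control cells (SD, n = 3). In the low fraction it averaged 25.7 ± 3.67, 23.04 ± 1.41, 24.1 ± 4.04 and 24.3 ± 3.09 CPM in that order of lines, and in the high fraction 34.7 ± 1.61, 35.02 ± 4.04, 41.7 ± 7.87 and 43.6 ± 5.43 CPM. The 4 low fraction means are the lowest of the 12 and differ by less than their spread. UAU and control total RNA, at the top of the order, differ by less than their spread. The high fraction log2 fold changes against control were -0.32 in UAU (adjusted p = 0.0558) and -0.32 in GAUi cells (adjusted p = 0.0979), and each became a call without control C.

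Summed over a class, cytosolic synthetase mRNAs in the high fraction came to 1480 ± 113 CPM in UAU, 1766 ± 64.8 CPM in GAUi, 2171 ± 81.9 CPM in isoswitch and 1906 ± 146 CPM in control cells (SD, n = 3). In total RNA they came to 3053 ± 7.999, 3359 ± 180, 3363 ± 13.2 and 3069 ± 80.9 CPM in the same order of lines. The isoswitch sums lay above the control sums in every library in both, the UAU sums below them in the high fraction. Mitochondrial members summed to 168 ± 13.8, 191 ± 9.81, 221 ± 9.59 and 211 ± 6.56 CPM in the high fraction, and to 241 ± 3.68, 238 ± 6.73, 238 ± 7.84 and 243 ± 6.84 CPM in total RNA. The ratio of the cytosolic to the mitochondrial sum was 8.83 ± 0.0543, 9.24 ± 0.476, 9.86 ± 0.635 and 9.03 ± 0.574 in the high fraction and 12.7 ± 0.216, 14.1 ± 1.03, 14.2 ± 0.522 and 12.6 ± 0.651 in total RNA. In the high fraction the mean of both classes is thus lowest in UAU and highest in isoswitch cells, although the mitochondrial sums of isoswitch (214 to 232 CPM) and control cells (204 to 216 CPM) overlapped. The sums weight abundant members such as TARS most, and no test was made of them.

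**Figure D5:**
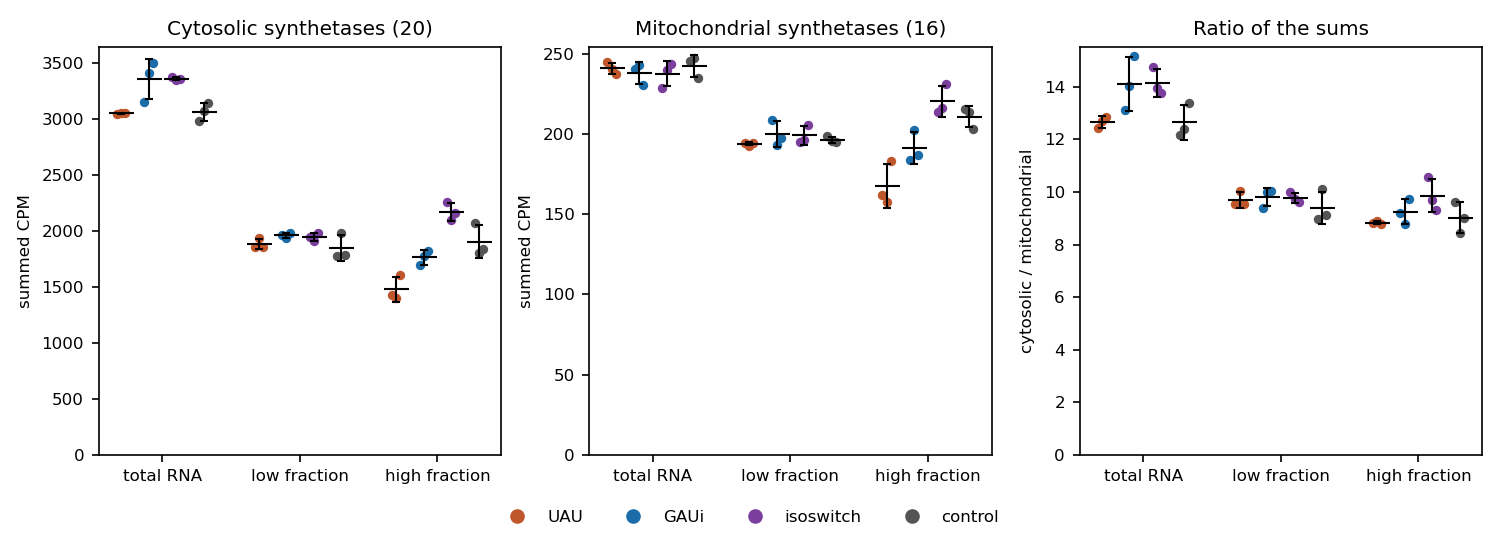
Summed CPM of the 20 cytosolic (left) and 16 mitochondrial synthetases (middle) and the ratio of the sums (right) by fraction, for the UAU, GAUi, isoswitch and control lines; points are libraries, black bars mean ± SD of 3. In the high fraction the cytosolic UAU points lie lowest (1480 ± 113 CPM) and the cytosolic isoswitch points highest (2171 ± 81.9 CPM), whereas mitochondrial isoswitch and control points overlap and the ratios of the other lines overlap those of control.

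Genes that work beside the synthetases moved in both directions in the high fraction, where 28.7% of all genes were called in UAU and 11% in isoswitch cells. Of 13 charging partners, such as tRNA deacylases and hydrolases, 4 (30.8%) were called in UAU cells, where 2 rose, the peptidyl-tRNA hydrolase domain gene PTRHD1 (0.62, adjusted p = 8.66e-05) and the deacylase DTD1 (0.52, adjusted p = 0.000321), and 2 fell, GATB and QRSL1 of the mitochondrial glutamine amidotransferase (-0.66, adjusted p = 0.0167 and -0.45, adjusted p = 0.0102). Of 5 elongation factor 1 genes, 3 (60%) fell in UAU cells: EEF1G, a subunit of the nucleotide exchange complex (-0.48, adjusted p = 0.000336), and EEF1A1 (-0.46, adjusted p = 0.000625) and EEF1A2 (-0.57, adjusted p = 0.0459), which carry charged tRNAs to the ribosome. In isoswitch cells EEF1A1 rose (0.33, adjusted p = 0.0155) and EEF1A2 fell (-1.13, adjusted p = 0.00155). EEF1A2 also fell in isoswitch total RNA (-1.04) and low fraction (-1.46), and in GAUi total RNA (-0.73), low (-1.34) and high fraction (-1.55). Of 25 amino acid response genes 4 rose and 3 fell in the UAU high fraction (28%), and 1 rose and 3 fell in isoswitch cells (16%), where ATF4 itself fell (-0.48, adjusted p = 0.00261). Over the 9 comparisons with control, 19 of the 39 members were called at least once, 11 cytosolic, 5 mitochondrial and all 3 complex proteins, when 43.1% of the 11732 genes tested in all 9 were called at least once, and 20 members were never called.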

How the data were processed

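The authors deposited raw counts per gene symbol, 1 table for each of 36 libraries, made per the labels with the Lexogen QuantSeq 3′ kit from 500 ng RNA, which reads the 3′ end of polyadenylated RNA. STAR, featureCounts and DESeq2, with the build hg38, are named in the submitters' processing notes. Their versions, the annotation and the strand setting were not given in the sources used here. Counts were tested as deposited with edgeR 4.0.16 (glmQLFit and glmQLFTest, R 4.3.3) after filterByExpr and TMM scaling. Each fraction was fitted with its 12 libraries, the control gradient with 9 and high-to-total changes with 24. SE is the log2 fold change over the square root of F. Alternatives were DESeq2 1.42.0, its size factors in edgeR, no low-count filter, fits of the compared groups alone, the replicate letter as a term, and leaving out each library. Up to 4 called members per comparison with the smallest p were given by library and up to 10 by fold, and members singled out beyond that were chosen after their values were seen. The members and lists were chosen with earlier results of these data known. Promoters are from RefSeq, GRCh38.p14, where 33 of 39 members matched. Nothing in the labels shows that replicates came from separate cultures. The p-values then reflect only the spread between these libraries, which may be technical. Reads without molecular identifiers are not independent molecules.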

Additional observations from a re-analysis of the deposited data

Results flagged for a closer look

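The effect of the UAU tRNA differed between cells with the repressed GAU tRNA and cells with the eGFP construct, by the interaction test in the high fraction (edgeR quasi-likelihood test with Benjamini-Hochberg adjustment), for 23 of 39 members (59%), when 35.7% of all genes were called. Among the cytosolic enzymes the log2 interactions were 1.32 for DARS, 1.18 for FARSA, 0.83 for SARS, 0.80 for NARS, 0.80 for QARS, 0.78 for RARS, 0.78 for YARS, 0.65 for TARS, 0.61 for WARS, 0.51 for KARS and 0.42 for GARS. Among the mitochondrial enzymes they were 1.09 for SARS2, 1.08 for NARS2, 1.08 for PARS2, 1.01 for TARS2, 1.00 for EARS2, 0.87 for RARS2, 0.82 for YARS2, 0.58 for WARS2 and 0.55 for IARS2. The complex proteins had 1.03 for AIMP1, 0.52 for AIMP2 and -0.75 for EEF1E1. The adjusted p ran from 2.23e-07 for DARS to 0.0306 for WARS2, whose call was lost in 7 of 12 fits with 1 library left out: control A, UAU A or B, GAUi A or C, isoswitch A or B (adjusted p up to 0.0962). GARS was lost without control A or C, GAUi B or isoswitch A or B (up to 0.0712), NARS2 without control A, UAU A, GAUi A or C or isoswitch A (up to 0.0956), PARS2 without control B, UAU A or B, GAUi B or isoswitch C (up to 0.099), and IARS2 without control A, GAUi A or isoswitch C (up to 0.077).

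The change from total RNA to the high fraction differed between UAU and control cells for 4 of 39 members (10.3%) in the same test, when 7.32% of all genes were called, with -0.73 for DARS, -0.78 for FARSA, -0.68 for AIMP1 and 0.42 for EEF1E1, whose call was lost in 8 of 12 fits with 1 library left out: control or UAU A or C of total RNA, control A or C or UAU A or B of the high fraction (adjusted p up to 0.135).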

How the results depend on the processing

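No member's call changed sign under any alternative that was run. Fitting only the compared groups gave 1 called member in UAU, 2 in GAUi and 9 in isoswitch total RNA (against 0, 6 and 3), 0 in the GAUi and 0 in the isoswitch low fraction (against 1 each), 8 for the UAU high-to-total change (against 4) and 6 for isoswitch against UAU in total RNA (against 3). The DESeq2 test gave 5 in isoswitch total RNA, 2 in the GAUi and 3 in the isoswitch low fraction, 7 for the UAU and 1 for the GAUi high-to-total change (against 4 and 0). With no low-count filter 2 were called in the GAUi low fraction. Leaving out each library gave 3 to 11 in GAUi and 1 to 2 in isoswitch total RNA, 0 to 3 in the GAUi and 0 to 3 in the isoswitch low fraction, 2 to 5 in the isoswitch high fraction, 3 to 11 for the UAU and 0 to 1 for the GAUi high-to-total change, 1 in each fit for isoswitch against UAU in total RNA and 3 to 10 for isoswitch against GAUi in the high fraction. The causes were not tested. The calls in the UAU high fraction stayed at 10 to 19, those of isoswitch against UAU at 19 to 23 and those of the interaction in the high fraction at 19 to 25. Of the named member results, 207 of 211 stayed on their side of the threshold with DESeq2 size factors, 201 of 210 with the DESeq2 test, 198 of 211 with no filter and 170 of 185 with only the compared groups. Of 10 high-to-total results, 8 did so with the low fraction in place of total RNA. Without GARS and KARS, which also make the mitochondrial enzyme, the cytosolic median in control cells was -0.90 for high against total RNA, and it was 0.02 against -0.04 in the isoswitch low fraction, the single comparison where its sign changed. The letters A, B and C showed no steady pairing. The correlation of same-lettered libraries ran from -0.51 to 0.34, and in 0 of 16 comparisons was every pair over 0.1. In 1, UAU against control in the high fraction, every library correlated best with its own letter (0.07 to 0.14). For GAUi against control in the high fraction the correlations were 0.09 to 0.32. With 3 libraries a group this check is weak, and a batch shared by letter is not excluded. With the letter as a replicate block, 204 of 211 named results stayed on their side and 7 lost their call, and the count of called members was 15 in the UAU and 6 in the isoswitch high fraction. The difference between the cytosolic and mitochondrial medians was set against its SD over the 3 libraries of 1 compared group, which leaves out the spread of the other groups. It moved by less than this SD in 228 of 283 alternatives over all comparisons. In the other 55 it moved by that much or more. Depth limits the mitochondrial members most, which had as few as 6 counts in a library.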
